A study of Homo sapiens with 6 samples.

Results

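The 6 genes described here, MTTP, FABP1, SCD, FASN, ACSL1 and CPT1A, encode enzymes and carriers of hepatic lipid and cholesterol metabolism. They were taken by name from the 20033 protein-coding genes of GENCODE release 44 on chromosomes 1 to 22, X and Y, and their chromatin was examined for binding of the TTD, the Tandem-Tudor domain of the protein UHRF1. The cells were untreated HepG2 cells, an established human liver cancer line labelled as hepatoblastoma and the only line studied here, and TTD CIDOP, H3K9me2 ChIP and input were each prepared in 2 biological replicates. In CIDOP, native mononucleosomes are pulled down with a GST-tagged reading domain in place of an antibody, here the TTD without the rest of UHRF1. The values below come from 1 list of 31569 broad TTD peaks called on the mean of both TTD replicates. This list holds positions and widths in hg38 but no score, so no error between replicates and no test over samples could be given, and it gives no read depth. It also holds no expression values, so that the identity of the cells could not be checked against marker genes.

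The TTD is a reader of histone H3 methylated at K9 (H3K9me2/3), and H3K4me1, the other mark of interest in the study, is typical of enhancers and of the flanks of promoters. UHRF1 itself is required for the maintenance of DNA methylation. In hepatocytes, acetyl-CoA is converted to saturated fatty acids by FASN (fatty acid synthase), and SCD (stearoyl-CoA desaturase) introduces a double bond into them. ACSL1 activates long-chain fatty acids to their CoA esters, and CPT1A, in the outer mitochondrial membrane, commits them to oxidation. FABP1 is the abundant cytosolic fatty acid carrier of the liver, and MTTP loads lipid onto apolipoprotein B during assembly of very-low-density lipoproteins.

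The genes fell into different patterns. FABP1 and MTTP had a TTD peak over the TSS, ACSL1 had a peak in its first intron and several peaks upstream, and SCD, FASN and CPT1A had no peak in the gene at all. For each gene the TSS was the 5′ end of the Ensembl canonical transcript, the TSS window spanned 2.5 kb on each side of it, and the surroundings spanned 100 kb on each side. Cover is the percent of such a window that lies in TTD peaks. A peak was present in the TSS window of 2 of the 6 genes, against 16.9% of all protein-coding genes. The gene body held a peak in 3 of the 6 genes, against 34.2% of all genes, and all 6 had a peak within 100 kb, as had 77.9% of all genes. The median cover of the surroundings was 4.32% for the 6 genes and 2.00% for all protein-coding genes.

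**Figure D1:**
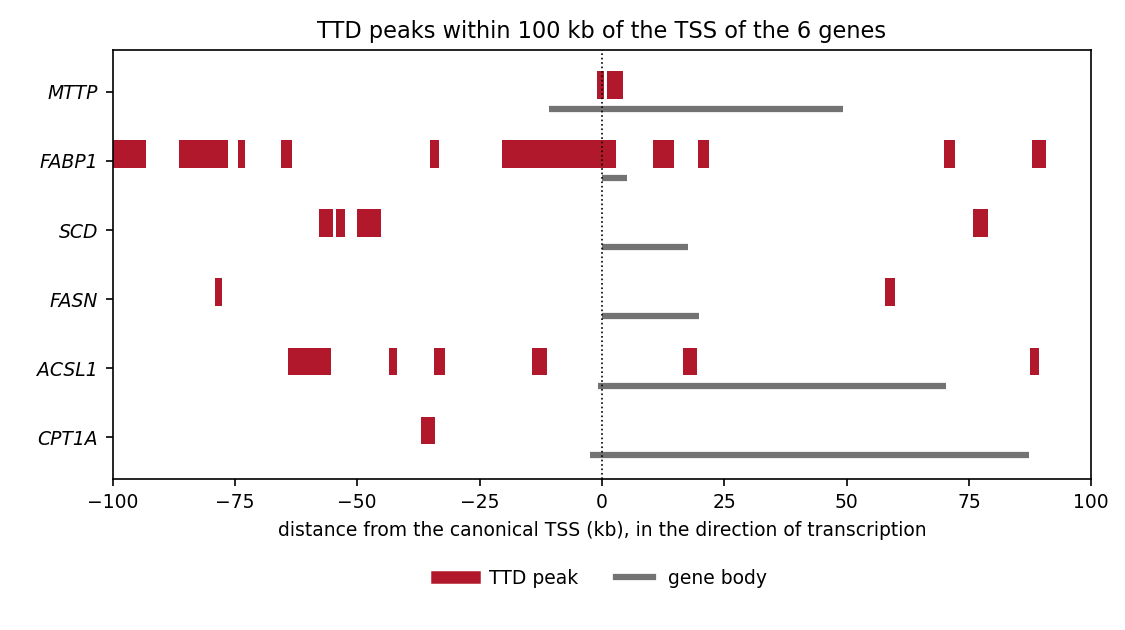
TTD peaks (red) and gene bodies (gray) of the 6 genes, with distance from the canonical TSS in kb on the x axis and transcription running from left to right. The 23350 bp peak of FABP1 and the first peak of MTTP span position 0, whereas the nearest peaks of SCD, FASN and CPT1A lie 45143, 57936 and 34105 bp away.

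Promoter sequences in and outside TTD peaks are shown first, so that their CpG content can be read beside the peaks. The sequences were taken from the RefSeq promoter windows of GRCh38.p14, which held entries for MTTP, FABP1, SCD, ACSL1 and CPT1A, and only bases before the TSS and outside annotated exons of protein-coding genes are printed. Capitals mark matches to the motifs searched, which are described after the sequences. The stretches of FABP1 (chr2:88128063-88128312, minus strand), of MTTP (chr4:99574574-99574808, plus strand) and of the internal ACSL1 promoter (chr4:184808555-184808781, minus strand) lie in TTD peaks over their whole length. Those of SCD (chr10:100346983-100347232, plus strand), of the canonical ACSL1 promoter (chr4:184826120-184826218, minus strand) and of CPT1A (chr11:68844411-68844527, minus strand), whose RefSeq TSS at 68844277 lies upstream of the canonical one, contain no base of a peak.
FABP1, in a peak: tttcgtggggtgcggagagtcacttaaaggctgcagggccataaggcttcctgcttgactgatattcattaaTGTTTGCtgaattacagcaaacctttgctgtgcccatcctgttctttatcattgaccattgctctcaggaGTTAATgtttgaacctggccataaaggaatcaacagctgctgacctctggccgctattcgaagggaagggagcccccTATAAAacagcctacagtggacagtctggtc
MTTP, in a peak: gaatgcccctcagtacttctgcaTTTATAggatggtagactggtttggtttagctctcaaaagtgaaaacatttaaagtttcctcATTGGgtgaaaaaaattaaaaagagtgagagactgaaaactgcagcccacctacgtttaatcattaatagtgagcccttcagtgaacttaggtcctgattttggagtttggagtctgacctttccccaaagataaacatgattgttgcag
ACSL1, internal promoter, in a peak: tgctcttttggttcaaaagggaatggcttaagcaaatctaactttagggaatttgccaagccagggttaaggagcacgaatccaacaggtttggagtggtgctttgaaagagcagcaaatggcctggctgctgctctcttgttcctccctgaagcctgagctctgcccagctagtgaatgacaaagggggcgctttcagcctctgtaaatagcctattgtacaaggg
SCD, outside peaks: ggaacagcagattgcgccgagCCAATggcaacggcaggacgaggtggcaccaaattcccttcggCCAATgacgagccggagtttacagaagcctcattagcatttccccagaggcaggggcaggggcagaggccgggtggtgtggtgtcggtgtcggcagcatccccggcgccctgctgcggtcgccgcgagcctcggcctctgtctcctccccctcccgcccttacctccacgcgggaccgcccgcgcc
ACSL1, canonical promoter, outside peaks: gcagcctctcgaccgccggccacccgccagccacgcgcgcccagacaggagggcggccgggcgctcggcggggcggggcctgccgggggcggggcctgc
CPT1A, outside peaks: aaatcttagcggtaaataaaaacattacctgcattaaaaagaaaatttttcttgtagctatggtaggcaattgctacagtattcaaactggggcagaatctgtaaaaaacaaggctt

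The table holds 10 promoters of these genes, and their CpG dinucleotides were counted in the 250 bases before each TSS, including bases not printed. The 3 in peaks contained 4 in FABP1, 1 in MTTP and 4 at the internal promoter of ACSL1. Outside peaks, the canonical ACSL1 promoter contained 41, SCD 23 and the upstream promoter of MTTP 17. However, few were also found in promoters at other TSSs whose 250 bases lay outside peaks, with 7 in CPT1A and 4, 4 and 6 at the other internal promoters of ACSL1, so that a low CpG count was not particular to the promoters in peaks. Of these, 1 promoter with 4, at 184805553, had a peak 1068 bp from its TSS. The median over all 35116 promoter windows of the table was 11. Motifs were searched on both strands of these 250 bases. The sequences TATAAA (the TATA box) and GTTAAT (bound by HNF1) were present once each in FABP1, at positions -31 to -26 and -108 to -103 from the TSS. They occur in 10.7% and 6.23% of all promoter windows. The FOXA sequence TGTTTGC was found in FABP1 at -178 to -172 and occurs in 3.23% of the windows, while the other FOXA sequence searched, TGTTTAC, occurs in 2.98% and was not found at the genes with entries. MTTP had TATAAA on the opposite strand at -227 to -222 and the CCAAT box, present in 32.0% of the windows, on the opposite strand at -165 to -161. SCD carried 2 CCAAT boxes, at -229 to -225 and at -186 to -182. The HNF4A sequence CAAAGTCCA, in 0.325% of the windows, was not found at them either. The sterol regulatory sequence TCACCCCAC, in 0.362% of the windows, was found on the opposite strand at 1 ACSL1 promoter that is not shown, 20415 bp downstream of the canonical TSS, together with a CCAAT box. No motif overlapped another, and a match of letters is a description and not a site of binding. Only these exact letters were searched, so that the lack of a match does not exclude related sequences.

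FABP1 (ENSG00000163586.10, chromosome 2, 88122982 to 88128062, minus strand) had the most cover of the 6 genes in every window. A single TTD peak of 23350 bp, from 88125211 to 88148560, contains the TSS and runs from position -20498 to position 2851 relative to it. All of the 5 kb around the TSS lay in this peak, which was the case for 0.25% of all protein-coding genes. Of the 31569 peaks in the list it is number 47 by width, and only 0.149% are as wide. The gene is short, at 5.08 kb, and 56.1% of it was covered, including exons 1 and 2 of the 4 exons of the canonical transcript. Among genes under 10 kb in length, 8.22% had a peak in the gene body. Cover of the gene body as high as that of FABP1 was found in 0.624% of all genes. GENCODE lists 4 TSSs for FABP1 within 21 bp of each other, and all 4 lie in the peak.

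The surroundings of FABP1 were also dense in TTD peaks, with 10 peaks within 100 kb of the TSS. Upstream, 43.1% of the 100 kb was covered, and downstream 14.3%. Besides the peak over the TSS, 5 peaks lay upstream and 4 downstream, and the widest of these, with 10010 and 7080 bp, lay 76.4 to 86.4 kb and more than 93.2 kb upstream. Together the surroundings had a cover of 28.7%, which 0.844% of all protein-coding genes reached. Chromosome 2 is rich in peaks as a whole, with a median cover of 5.50% around its 1247 protein-coding genes against 2.00% over all genes, and 3.13% of the genes on this chromosome had as much cover as FABP1. A peak was present in the TSS window of 31.0% of the genes on this chromosome, against 16.9% of all genes. The number of copies of this chromosome in the cells was not measured here, and its part in the result was not tested. Of the 10 peaks, 3 had the TSS of FABP1 as the nearest protein-coding TSS of their midpoint. The others lay nearest to THNSL2, 5 peaks, or to KRCC1, 2 peaks. Both peaks nearest to KRCC1 lie in that gene, and they are 69992 bp or more downstream of the TSS of FABP1.

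MTTP (ENSG00000138823.14, chromosome 4, 99564081 to 99623997, plus strand) had 2 TTD peaks, 1 over the TSS and 1 just downstream, both reaching into the TSS window. The first, from 99573841 to 99575170, is 1330 bp wide and runs from position -983 to position 346 relative to the TSS, so that exon 1 lies in it. The second, from 99575951 to 99579200, is 3250 bp wide and lies in intron 1. Between them is a gap of 780 bp, also in intron 1. The TSS window was covered to 54.1%, as much as in 1.96% of all genes, and the 500 bp around the TSS were covered completely, as in FABP1. Outside these peaks MTTP had none. Its 59.9 kb were covered to 7.64%, a value that 13.3% of all genes reached, and 43.9% of the genes of 30 to 100 kb had a peak in the gene body. The surroundings were covered to 2.29%, and 46.8% of all genes had as much, so that MTTP was near the middle of all genes in this window while it was near the top at its TSS.

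The peak that contains the TSS of MTTP is narrower than the median of the list, 2250 bp. With only peaks of at least this width, the cover of the TSS window was 27.5%, from the second peak, and the TSS itself lay in no peak. The value for MTTP also depends on which TSS is taken. GENCODE lists 3 TSSs for the gene, and 2 of them lie more than 10 kb upstream of the canonical one, at 99564081 and 99564083. They stand back to back with the gene TRMT10A, whose TSS is 42 bp from the first of them on the minus strand. No peak lay within 2.5 kb of these upstream TSSs, and the nearest one was 9760 bp from the 5′ end of the gene record. With this 5′ end as the TSS, FABP1 alone of the 6 genes had a peak in the TSS window, and the share of all genes was again 16.9%.

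**Figure D2:**
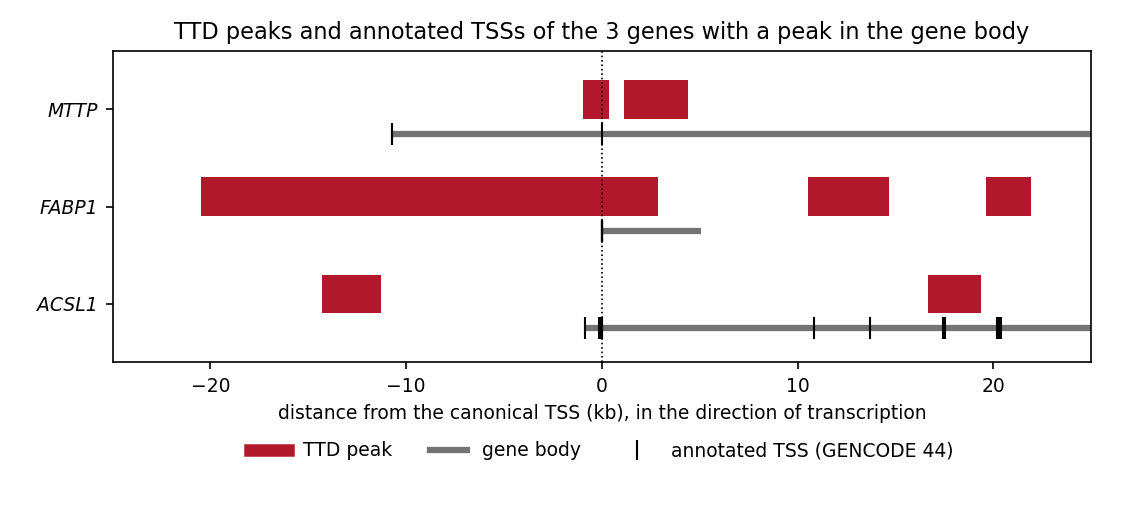
TTD peaks (red), gene bodies (gray) and the TSSs listed by GENCODE release 44 in the range drawn (black marks) of MTTP, FABP1 and ACSL1, with distance from the canonical TSS in kb on the x axis. The first peak of MTTP covers its canonical TSS, and no peak covers the pair of TSSs more than 10 kb upstream. The intronic peak of ACSL1 covers 2 internal TSSs about 17 kb downstream of the canonical one.

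ACSL1 (ENSG00000151726.16, chromosome 4, 184755595 to 184826818, minus strand) had no TTD peak in the window around its canonical TSS at 184825968. One peak of 2710 bp, from 184806621 to 184809330, lies in intron 1 of the canonical transcript and covers 3.80% of the gene, which is 71.2 kb long. As for MTTP, this compares with 43.9% of genes of 30 to 100 kb with a peak in the body. The intronic peak is at a cluster of internal TSSs. Of the 15 TSSs that GENCODE lists for ACSL1, those at 184808451 and 184808554 lie in the peak, and 5 of the 15 have this same peak within 2.5 kb. The TSS at 184808451 is that of a transcript listed as nonsense-mediated decay. RefSeq lists 5, of which the one at 184808531 lies in the peak. Its window contains the whole of this peak and was covered to 54.2%, whereas the canonical TSS of ACSL1 had 11303 bp to the nearest peak.

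Around ACSL1, 6 peaks were listed within 100 kb, with a cover of 9.93%, which 10.2% of all protein-coding genes and 8.98% of those on chromosome 4 reached. On the upstream side 4 peaks covered 15.4% of the 100 kb, and the widest, of 8680 bp, lies 55.4 to 64.1 kb from the TSS. Downstream of the TSS, the intronic peak and another one beyond the 3′ end of the gene covered 4.42%. The upstream peaks lie outside protein-coding genes, and each of them has the TSS of ACSL1 as its nearest protein-coding TSS, as has the intronic peak. ACSL1 therefore had 5 of its 6 peaks nearest to its own TSS. Only 1 other protein-coding TSS, that of CENPU, lies within 100 kb of it.

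SCD (ENSG00000099194.6, chromosome 10, 100347233 to 100364826, plus strand) had no peak in its 17.6 kb or in the TSS window. Among genes of 10 to 30 kb, 21.7% had a peak in the body, a share that also applies to FASN. The surroundings of SCD were covered to 6.35% by 4 peaks, and 19.1% of all genes and 20.7% of those on chromosome 10 had as much. However, 3 of these peaks lie within PKD2L1, at positions -57802 to -45143 from the TSS, and the last one lies 75748 bp downstream at the lncRNA OLMALINC. The widest, from 100297161 to 100302090, measures 4930 bp. None of the 4 had SCD as its nearest protein-coding TSS. The nearest TSS was that of BLOC1S2 for the upstream peaks and that of WNT8B for the other.

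FASN (ENSG00000169710.9, chromosome 17, 82078338 to 82098294, minus strand) likewise had no peak in its 20.0 kb or in the TSS window, and none of its 13 TSSs in GENCODE had one within 2.5 kb. The 2 peaks in its surroundings are narrow, 1860 and 1380 bp, against a median of 2250 bp in the whole list. The first, from 82038441 to 82040300, lies 57936 bp downstream of the TSS near DCXR, and the second, from 82175821 to 82177200, ends at position -77585 from the TSS, in CCDC57. They covered 1.62% of the surroundings, and 54.4% of all genes and 61.8% of those on chromosome 17 had as much. This region is crowded, with 7 other protein-coding TSSs within 100 kb, of which that of DCXR had a peak in its window.

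CPT1A (ENSG00000110090.13, chromosome 11, 68754620 to 68844410, minus strand) had a single peak in its surroundings. No peak was listed in its 89.8 kb, although 43.9% of the genes of 30 to 100 kb contained one, and none of its 8 TSSs in GENCODE had a peak within 2.5 kb. One peak of 2830 bp, from 68876021 to 68878850, lies 34105 bp upstream of the canonical TSS and 31611 bp from the 5′ end of the gene record. It was nearest to the TSS of MRPL21. The cover of the surroundings was 1.41%, which 57.3% of all genes and 46.9% of those on chromosome 11 reached. It was below that of FASN within 100 kb but not within 50 kb, where CPT1A had 2.83% and FASN 0%. On the downstream side, which holds nearly all of the gene, no peak was listed within 100 kb.

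**Figure D3:**
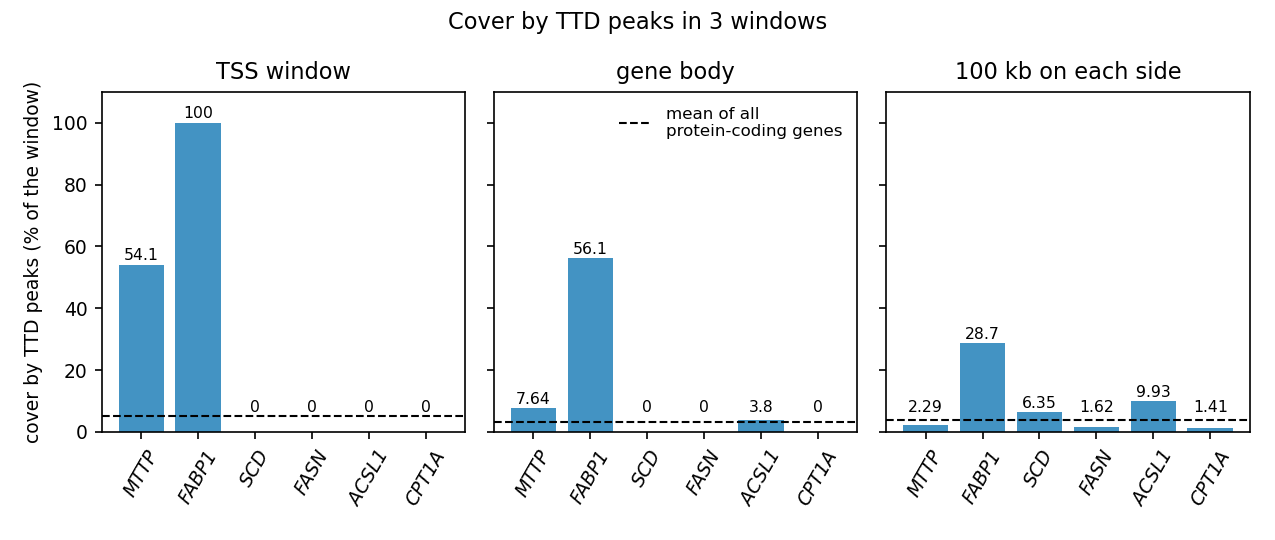
Cover by TTD peaks, in percent of the window, for the 6 genes in the TSS window, the gene body and the 100 kb on each side of the TSS, with the mean of all protein-coding genes as a dashed line (5.19%, 3.39% and 3.91%). FABP1 is highest in each window, MTTP is above the line at the TSS and in the gene body (7.64%) but not in the surroundings (2.29%), and SCD, FASN and CPT1A are at 0 in the first and second.

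In order of the cover of the surroundings, FABP1 with 28.7% was followed by ACSL1 (9.93%), SCD (6.35%), MTTP (2.29%), FASN (1.62%) and CPT1A (1.41%). Without replicates in the list it cannot be said which neighbours in this order differ. At the TSS the order was another one, with FABP1 at 100%, MTTP at 54.1% and the remaining 4 genes at 0%. In all, 25 peaks lay within 100 kb of the 6 TSSs, with a summed width of 100900 bp, of which 57680 bp belong to FABP1. Their median width was 2710 bp. Of these peaks, 14 lay upstream, 9 downstream and 2 over the TSS, 14 lay outside protein-coding genes, and 10 had the TSS of the gene concerned as the nearest one. The other protein-coding TSSs within 100 kb number 20. A peak was present in the window of 2 of them, against 16.9% of all protein-coding genes, with a cover of 42.0% at KRCC1 and 35.1% at DCXR. None of these 20 genes overlapped any of the 6.

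The canonical TSSs with and without a peak in the window were of different base composition. In the 1 kb around the canonical TSS, the CpG observed/expected ratio was 0.0893 at MTTP and 0.244 at FABP1, both in the lowest quartile of all protein-coding genes, which ends at 0.408. It was 0.772 at SCD, in the third quartile, and 0.888 at CPT1A, 0.922 at ACSL1 and 0.937 at FASN, all in the highest quartile, which begins at 0.838. GC content was 36.8% and 44.4% at MTTP and FABP1, and between 65.1% and 78.9% at the other 4 genes. Over all genes, the share with a peak in the TSS window, from the lowest to the highest quartile of this ratio, was 14.1%, 17.8%, 19.6% and 16.2%. The share with the TSS base itself inside a peak was 2.19% over all genes and differed more between quartiles, with 5.99%, 1.58%, 0.758% and 0.419%. Both MTTP and FABP1 belong to this smaller class, in which the peak runs across the TSS. The part of base composition in the recovery of fragments was not tested.

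**Figure D4:**
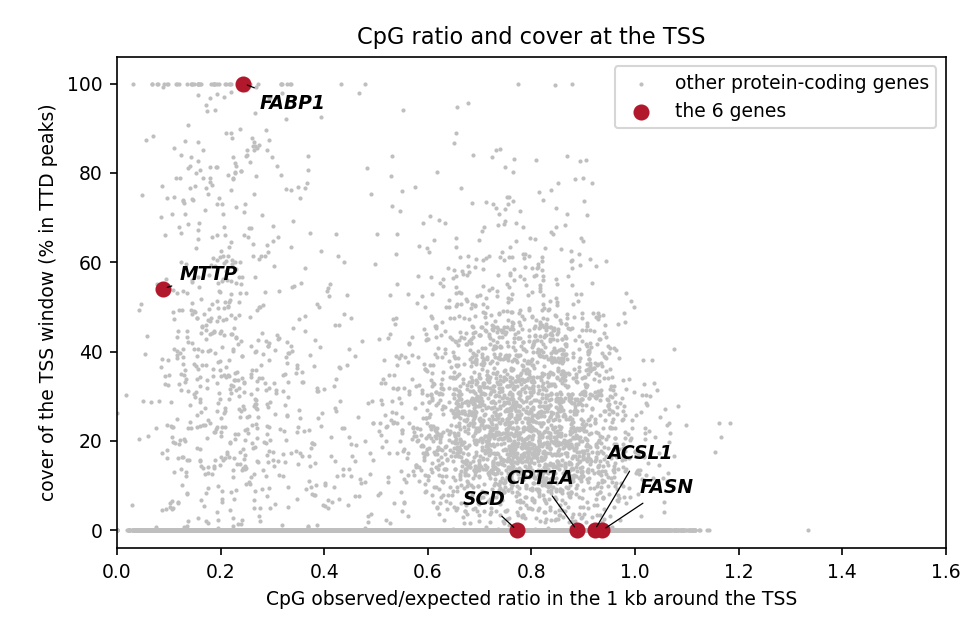
CpG observed/expected ratio in the 1 kb around the TSS (x axis) and cover of the TSS window in percent (y axis), with each gray point a protein-coding gene and the 6 genes in red. MTTP and FABP1 lie at low ratios with a cover of 54.1% and 100%, and SCD, CPT1A, ACSL1 and FASN lie above a ratio of 0.772 or at it with a cover of 0%.

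Genes of the same pathways were looked up in lists of 86 genes in all. Of these, 20 had a peak in the TSS window, or 23.3%, against the 16.9% of all protein-coding genes. The body of 41 held a peak, or 47.7%, against 34.2% of all genes, and 69 had a peak within 100 kb of the TSS, or 80.2%, close to the 77.9% of all genes. By list, the share with a peak in the body was 69.2% for fatty acid and triglyceride synthesis, 64.7% for uptake, storage and secretion, 50.0% each for oxidation and ketogenesis and for regulators, 46.2% for paralogs of the 6 genes and 15.8% for cholesterol synthesis. The lists also differ in gene length, on which this share depends over all genes. The median length was 81.8 kb in fatty acid and triglyceride synthesis, 40.7 kb in uptake, storage and secretion, 37.2 kb in oxidation and ketogenesis, 29 kb in regulators, 22.8 kb in paralogs and 22.1 kb in cholesterol synthesis, against 27.5 kb over all genes. The part of length in these shares was not tested. The median cover of the surroundings was 3.29%, and 53 of the 86 were above the median of all genes. The TSS base itself lay inside a peak in 2 of them, CIDEB and SLC27A5, or 2.33%, close to the 2.19% of all genes.

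Among the 13 genes of fatty acid and triglyceride synthesis, to which FASN and SCD are related by function, 2 had a peak in the TSS window. These were DGAT2, which catalyses the last step of triglyceride synthesis, with 47.1% of the window covered, and the desaturase FADS1 with 14.6%. GPAM, which acylates glycerol 3-phosphate, had no peak in the gene but a cover of 23.6% within 100 kb. For DGAT2 this value was 17.6%. Of the 19 genes of cholesterol synthesis, 4 had a peak in the TSS window. HMGCS1, which makes HMG-CoA, was covered to 38.8% there, HSD17B7 to 23.6% and CYP51A1 to 16.5%. In HMGCS1 and HSD17B7 the gene body held no peak. The most cover within 100 kb was found at MSMO1 with 13.6% and HSD17B7 with 7.29%.

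In fatty acid oxidation and ketogenesis, the pathway that CPT1A feeds, 4 of 14 genes had a peak in the TSS window. CPT2, the partner of CPT1A in the inner mitochondrial membrane, had a cover of 38.7%. HADH had 32.4% and the peroxisomal EHHADH 25.2%. Within 100 kb, CPT2 had a cover of 6.54%, EHHADH 5.65% and HADH 0.955%.

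Among the 17 genes of lipid uptake, storage and secretion, 5 had a peak in the TSS window. SLC27A5, a liver fatty acid transporter and bile acid-CoA ligase, was covered to 89.0%, the fatty acid receptor CD36 to 58.0%, CIDEB, a lipid droplet protein, to 50.8%, PNPLA3 to 27.8% and SOAT2 to 13.5%. Within 100 kb, CD36 with 22.7% and the hepatic lipase gene LIPC with 17.2% had the most cover, and each of them contains 11 peaks. Of the 10 regulators of lipid genes, 2 had a peak in the TSS window, INSIG2, an inhibitor of SREBP processing, with 43.8%, and SREBF2, which encodes SREBP2, with 4.90%. PPARGC1A and INSIG2 had a cover of 17.5% and 17.1% within 100 kb.

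The paralogs of the 6 genes number 13 in the lists, and 3 had a peak in the TSS window. FABP3, the heart form of the carrier, was covered to 36.3%, ACSL5 to 16.5% and ACSL3 to 12.3%. ACSL5 and ACSL3 had a cover of 30.7% and 25.3% within 100 kb, with 11 and 14 peaks, compared with 9.93% and 6 peaks at ACSL1. No test of these differences was possible with 1 pooled list.

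**Figure D5:**
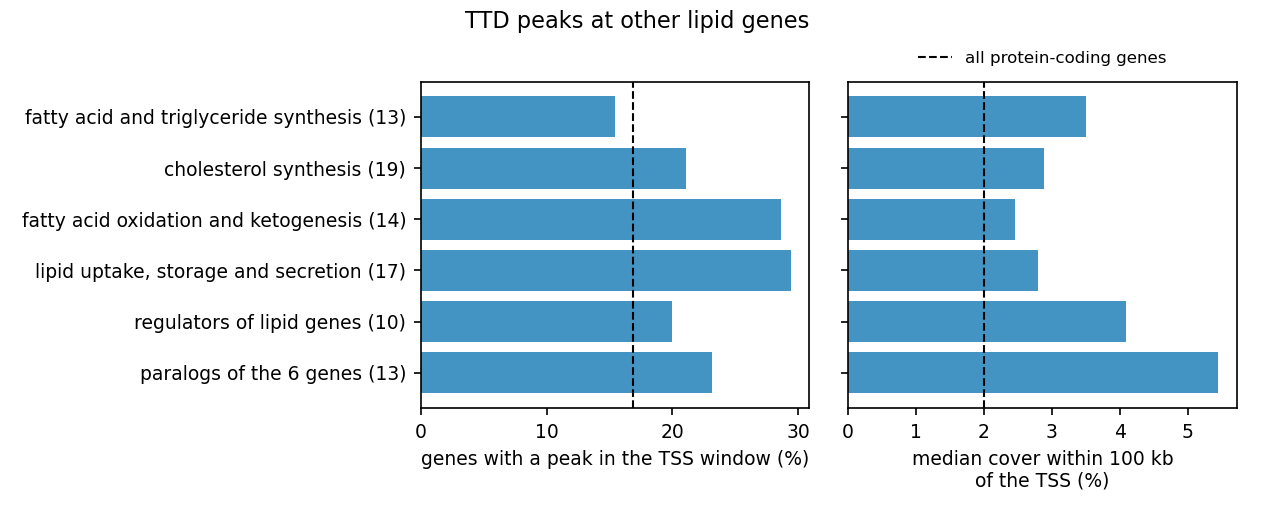
Share of genes with a TTD peak in the TSS window (left, in percent) and median cover within 100 kb of the TSS (right, in percent) for 6 lists of other lipid genes, with the number of genes in each list in parentheses and the value of all protein-coding genes as a dashed line (16.9% and 2.00%). The share at the TSS ranges from 15.4% in fatty acid and triglyceride synthesis to 29.4% in uptake, storage and secretion, and the median cover lies above the line in each list.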

How the data were processed

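TTD CIDOP, H3K9me2 ChIP and input libraries of HepG2 cells were labelled as 2 biological replicates each, 6 in all. Per the study's methods, the authors used Trimmomatic 0.38 for trimming and HISAT2 2.2.1 for mapping to hg38. Coverage tracks, as RPKM per bin of 10 bp with the blacklist left out, came from deepTools 3.3.2, and the TTD tracks were averaged. MACS2 2.1.1 then gave broad peaks at set cutoffs, which were cleared of blacklisted intervals and edited manually. The deposited list holds positions and widths in bp, and the listed widths match the positions for 31569 of 31569 peaks. The signal of single libraries was not analysed here.

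Peaks were overlapped with GENCODE release 44 on the same build, and any overlap counted. Sequence content came from the hg38 sequence, and 250 bp promoters from RefSeq, whose bases matched hg38. CpG observed/expected is the CpG count times the window length over the product of the C and G counts. The interval arithmetic was checked on simulated peaks. The genes named from other lists are the 2 with the largest cover within 100 kb and up to 5 with the largest cover of the TSS window, except that values of 2 of them are not reported here. The members and lists were chosen with earlier results of these data known. As alternatives, only peaks of 2250 bp (the median) or wider, the 5′ end of the gene record, other windows, a minimum overlap of 50% of the peak and joined peaks were tried. Python 3.11.15, numpy 2.4.6, pandas 2.3.3, pysam 0.24.0 and matplotlib 3.10.9 were used.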

Additional observations from a re-analysis of the deposited data

How the results depend on the processing

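The number of genes with a TTD peak in the TSS window was 2, and became 1 with the 5′ end of the gene record as the TSS, which removed MTTP, and 1 when at least 50% of the peak had to lie in the window, which removed FABP1 because its peak is wider than the window. The latter also removed FABP1 from the genes with a peak in the body, which then numbered 2 in place of 3. With windows of 1 kb or 5 kb, or with only the peaks of 2250 bp or wider, the number with a peak in the TSS window was 2. The share of all genes was then 10.8%, 22% and 7.31% against 16.9%. Without the narrower peaks, MTTP had 27.5% of the window covered in place of 54.1% and no peak over the TSS. The median number of peaks within 100 kb was 3, with 2 for the wider peaks, 2.5 with joined peaks and 1.5 within 50 kb. The median cover of the surroundings, 4.32%, was 3.51% with the wider peaks, 3.80% for 100 kb on each side of the whole gene and 4.72% within 50 kb. With the wider peaks, FASN had no peak within 100 kb, and it had none within 50 kb with all peaks, so that FASN and not CPT1A then had the least cover. Of 132 values of single genes under the alternatives, 37 differed, counts by more than 1.5 times or to or from 0 and covers in their first 3 significant digits. No paired analysis was possible because the peak list was made from the mean of both replicates, and for the same reason no replicate could be left out. Absence of a peak holds only at the cutoffs of the authors.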
